A study of Homo sapiens with 8 samples.

Results

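Proteases that cut the extracellular matrix, the inhibitors that hold them back and the laminin chains of the basement membrane were followed in SH-SY5Y cells, a human neuroblastoma line that the labels class as neuronal progenitor. The members were all protein-coding rows of the count table whose symbol begins with MMP and a number or with ADAMTS, or is TIMP1 to TIMP4, or is LAMA, LAMB or LAMC followed by 1 digit. The rule used no measured value and found 64 of 67060 gene rows, of which 19945 were protein-coding. The members are 23 matrix metalloproteinases (MMP), 19 ADAMTS proteases, 5 ADAMTS-like proteins, the 4 tissue inhibitors of metalloproteinases (TIMP) and 12 laminin chains. MMP24OS, a gene on the strand opposite MMP24, came in by its symbol alone and is kept apart. Bulk RNA was sequenced from 8 samples after 48 hours with 0.5 ul of adenovirus. The 4 GFP libraries came from cells given the virus for BioID-GFP-NLS, a nuclear green fluorescent protein, and the 4 ERRg libraries from cells given the virus for BioID-Flag-ERRg, the estrogen-related receptor gamma, an orphan nuclear receptor. Both proteins carry the BioID tag, a biotin ligase, so every group had virus and tag, and cells without virus were not analysed here. The labels do not tie the samples to separate cultures, so the p-values measure only the spread between these libraries, which may be technical. The comparison asks which genes differ in expression when the tagged receptor is present in place of the tagged fluorescent protein.

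The MMPs are zinc proteases made as inactive precursors. Some are secreted and some are held at the cell surface, and between them they cut collagens, gelatin, proteoglycans and elastin. The ADAMTS proteases are secreted, bind the matrix through thrombospondin repeats, and trim procollagens or cut the large proteoglycans that fill the matrix of the nervous system. TIMPs block these enzymes by binding the active site, and laminins are trimers of an alpha, a beta and a gamma chain that form the sheet to which integrins and dystroglycan attach; in neural cell culture they are known as a substrate for neurite growth.

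The GFP libraries held 27.7 M to 35.5 M reads in genes (M, 10 to the power of 6) and the ERRg libraries 21.02 M to 23.0 M. ESRRG, the gene of the receptor, read 34.9 ± 2.34 CPM (SD, n = 4; counts per M of the TMM-scaled library) in GFP and 808 ± 73.2 CPM in ERRg libraries, and so matched the labels. Of 16 noradrenergic neuroblastoma markers 13 had enough reads to test, while TH and CHGA were listed at 0 in all libraries. Among the 13, 10 were lower in ERRg libraries and none higher. Of all genes tested, 35.9% were lower and 38.8% higher, and of the tested protein-coding genes 50.6% were lower and 28.96% higher. In the fit with GC, length and span offsets described below, 7 markers were lower and 4 higher. In that fit 39.7% of the protein-coding genes were lower and 32.0% higher. The summed level of the 16 markers was 1063 to 1217 CPM in GFP and 674 to 753 CPM in ERRg libraries. Of 12 fibroblast markers 10 could be tested, with 2 higher and 7 lower, and with offsets 1 higher and 8 lower. They summed to 1864 to 2073 CPM in GFP and 1089 to 1196 CPM in ERRg libraries. TWIST2 was at 0 and POSTN had at most 10 reads in any library. Epithelial markers summed to 272 to 361 CPM in GFP and 181 to 255 CPM in ERRg libraries. Of the 6 tested, 4 were lower and none higher, and with offsets 2 were lower and 3 higher. Schwann cell markers summed to 149 to 179 and 181 to 202 CPM. Of the 5 tested, 2 were higher and 2 lower, and with offsets 3 were higher and none lower. Endothelial and leukocyte markers summed to at most 3.09 CPM. The part of these shifts in the results below was not tested. Reads assigned to no exon were 20.9% ± 3.58 (SD, n = 4) of the library in GFP and 46.7% ± 1.31 in ERRg samples (exact two-sided permutation test over 70 arrangements, p = 0.0286, the smallest they can give). Libraries ERRg 1 and 2 resembled each other (chi-square per gene 2.90), as did ERRg 3 and 4 (5.03), more than libraries across these pairs (10.0 to 22.6), so results whose call rests on 1 pair are given with and without it.

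Of the 64 members, 47 had enough reads to test, 5 had no read in any library (MMP8, MMP11, MMP20, MMP26 and ADAMTS13), and the other 12 had at most 13 reads in any library. In edgeR's quasi-likelihood test on counts scaled with TMM factors, with a Benjamini-Hochberg adjusted p under 0.05 over all 21993 genes tested, 11 members were higher and 29 lower in ERRg libraries, and 7 did not pass. Of all genes tested, 38.8% were called higher and 35.9% lower, and of the protein-coding genes 28.96% were higher and 50.6% were lower. The members' log2 fold changes had a median of -0.54, against 0.09 over all genes tested and -0.30 over the protein-coding ones. In bulk samples, fewer cells of a type and less RNA per cell cannot be told apart. Over the whole table GC-rich genes read lower in ERRg libraries: across 13426 coding genes the log2 fold change and the GC content of the longest transcript had Pearson's r = -0.65, and across the 47 members r = -0.29 (genes are not independent and share the 8 libraries). A further fit therefore took out, in each library, the smooth relation of the counts to GC content, transcript length and gene span. With these offsets 14 members were higher and 19 lower, against 32.0% and 39.7% of the 13426 genes in that fit, shares near those of the members (29.8% and 40.4%). Each value below is from the TMM fit unless the offsets are named. The 2 fits agreed in a call for 25 members, 8 higher and 17 lower. Opposite calls came for 5 members, MMP16, MMP24, ADAMTS7, LAMA5 and LAMB2.

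**Figure D1:**
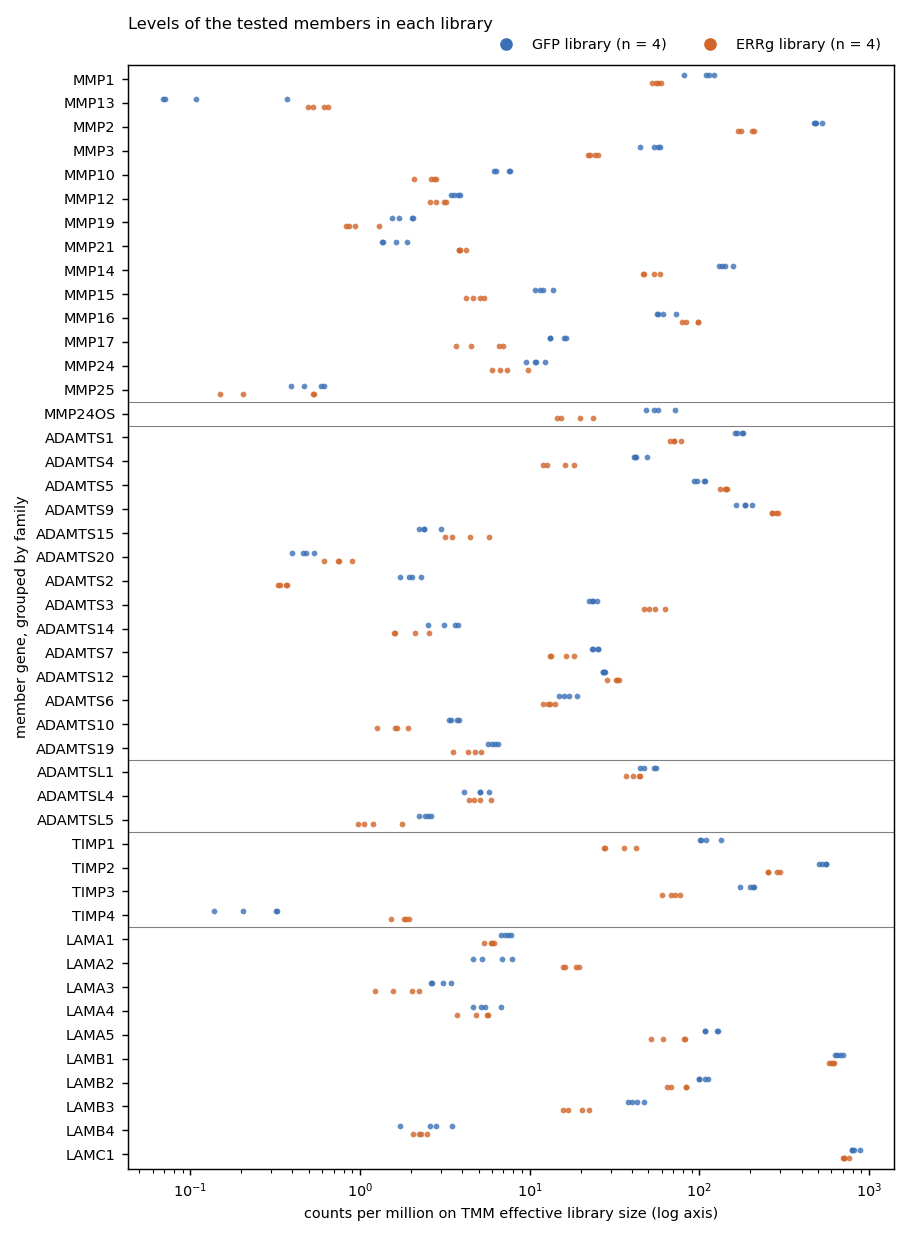
Level of the tested members in each library, 1 left out, in CPM on a log axis, grouped by family (blue, 4 GFP libraries; orange, 4 ERRg libraries). TIMP4 is the member with the widest gap upward, from 0.138 to 0.324 CPM in GFP to 1.52 to 1.95 CPM in ERRg libraries.

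**Figure D2:**
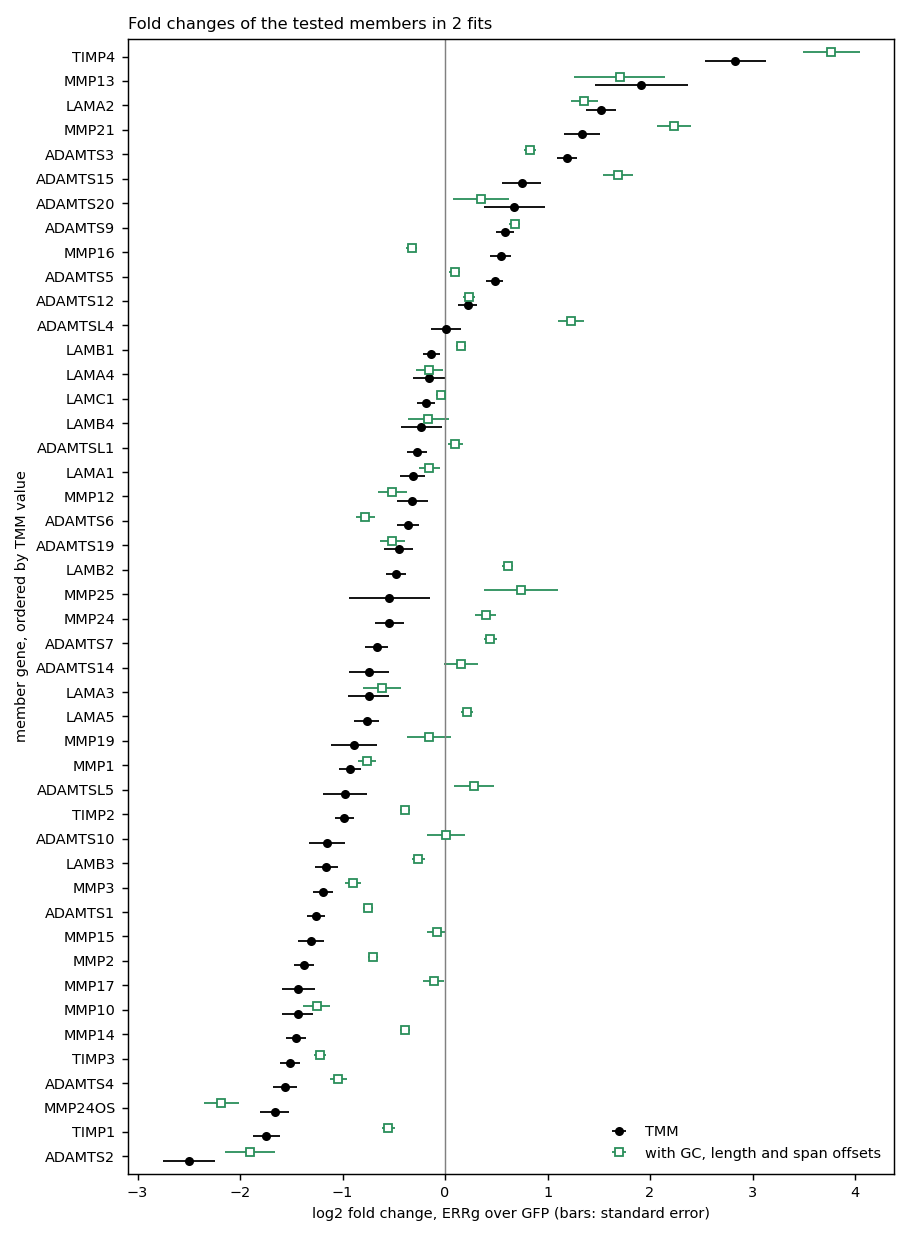
Log2 fold change of the tested members, 1 left out, ERRg over GFP, with its standard error, in the TMM fit (black circles) and in the fit with GC, length and span offsets (green squares). ADAMTS2, at -2.50 and -1.90, and TIMP4, at 2.83 and 3.77, form the ends of the TMM order, while LAMB2 lies at -0.48 in the TMM fit and at 0.61 with offsets.

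**Figure D3:**
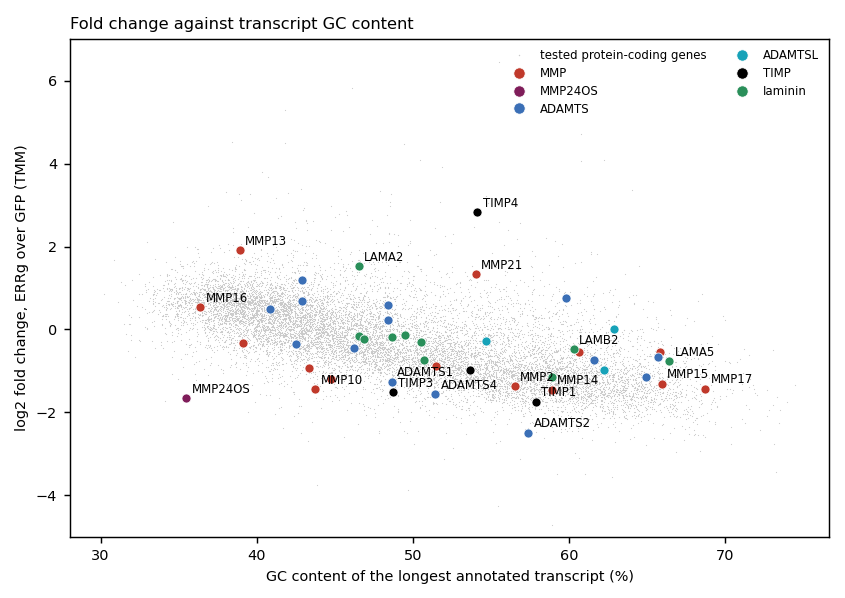
TMM log2 fold change against the GC content of the longest annotated transcript for the tested members, 1 left out (coloured by family) and for the tested protein-coding genes (grey). LAMA5 (66.4% GC) and LAMB2 (60.3%), at -0.76 and -0.48, lie toward the upper side of the grey points of like GC content, and MMP24OS (35.5%), at -1.66, lies below them.

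Of the 23 MMPs 14 could be tested. Of these 3 were higher and 9 lower (21.4% and 64.3%, against 28.96% and 50.6% of the tested protein-coding genes). Among the secreted enzymes the gelatinase MMP2, the collagenase MMP1 and the stromelysins MMP3 and MMP10 all fell in ERRg libraries, by 1.91-fold to 2.71-fold. MMP2 was the most abundant MMP per length, at 99.8 CPM per kb of exon in GFP and 38.4 in ERRg libraries. Its levels were 472, 529, 487 and 481 CPM in GFP libraries 1 to 4 and 168, 175, 210 and 205 CPM in ERRg libraries 1 to 4. Every ERRg library lay far below every GFP library, and the log2 fold change was -1.38 (SE 0.09, adjusted p = 1.59e-10; -0.70 with offsets). MMP9, the other gelatinase, had only 3 to 13 reads in GFP and 3 to 5 in ERRg libraries and was not tested.

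MMP1, which opens the triple helix of fibrillar collagen, read 109, 81.4, 122 and 114 CPM in GFP and 55.1, 56.8, 52.7 and 59.2 CPM in ERRg libraries. The groups were apart, with GFP library 2 nearest to the ERRg libraries; the log2 fold change was -0.93 (SE 0.11, adjusted p = 1.35e-07; -0.76 with offsets). MMP3, a stromelysin that cuts many matrix proteins and activates other MMPs, read 57.1, 44.7, 58.3 and 54.0 CPM in GFP and 24.2, 21.9, 22.6 and 25.2 CPM in ERRg libraries. It was lower in each ERRg library than in each GFP library, by -1.19 (SE 0.10, adjusted p = 1.43e-09; -0.90 with offsets). MMP10, the other stromelysin with reads, stood at 6.17, 7.69, 7.56 and 6.34 CPM in GFP and 2.80, 2.63, 2.09 and 2.72 CPM in ERRg libraries. That gap was -1.44 (SE 0.15, adjusted p = 3.57e-08; -1.25 with offsets). For these 3 the values of the fits lay closer together than for MMP2.

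These 3 genes lie side by side with 6 other MMP genes in a cluster of 435 kb on the long arm of chromosome 11 (chr11:102520508-102955734, GRCh38). In this cluster MMP7, MMP8, MMP20 and MMP27 had too few reads to test. MMP12, the macrophage elastase, read 3.46 to 3.86 CPM in GFP and 2.60 to 3.23 CPM in ERRg libraries, without overlap; it did not pass in the TMM fit (-0.32, adjusted p = 0.0653) and was lower with offsets (-0.51, adjusted p = 0.00286). MMP13, a collagenase at the far end of the cluster, went the other way, with 2 to 9 reads in GFP and 12 to 16 in ERRg libraries (1.92, SE 0.45, adjusted p = 0.000763; 1.70 with offsets). WTAPP1, a pseudogene on the opposite strand, spans MMP10 and shares 7.61% of the exon bases of MMP1 and 1.56% of those of MMP3. The library kit kept strand, but the strand setting of the counting is not given in the sources used here, so reads of opposite-strand partners may not be told apart; 19 tested members share exon bases with such a partner.

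**Figure D4:**
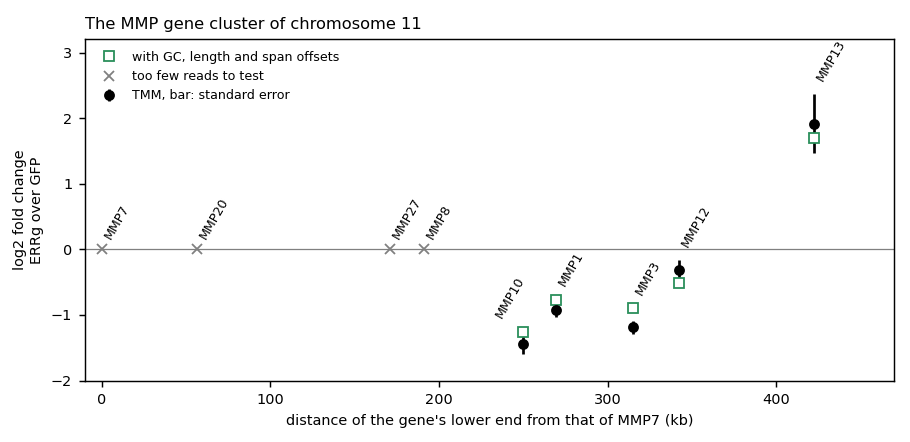
Log2 fold change of the MMP genes in the chromosome 11 cluster against distance in kb from MMP7 (black, TMM fit with standard error; green, fit with offsets; grey crosses, drawn on the zero line, too few reads to test). MMP10, MMP1 and MMP3 lie between -1.44 and -0.93 in the TMM fit, and MMP13 lies at 1.92.

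MMP21, a secreted MMP known for its part in left-right patterning of the embryo, was higher in ERRg libraries in both fits. It read 1.64, 1.35, 1.37 and 1.89 CPM in GFP and 3.83, 3.87, 3.86 and 4.19 CPM in ERRg libraries, with no overlap (1.34, SE 0.17, adjusted p = 7.01e-07; 2.23 with offsets). MMP19, another secreted MMP, was lower in the TMM fit, at 1.53 to 2.05 CPM in GFP and 0.823 to 1.30 CPM in ERRg libraries (-0.89, adjusted p = 0.00152), but not with offsets (-0.16, adjusted p = 0.527).

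The membrane-bound MMPs differed among themselves. MMP14, which activates MMP2 at the cell surface together with TIMP2, was lower in both fits. It read 131, 157, 142 and 136 CPM in GFP and 47.3, 46.7, 58.6 and 54.1 CPM in ERRg libraries, a wide gap (-1.45, SE 0.10, adjusted p = 1.34e-10). With offsets the fall was smaller, at -0.39 (adjusted p = 1.16e-06).

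MMP15, a close relative of MMP14, read 11.5, 13.8, 10.8 and 11.9 CPM in GFP and 4.20, 4.62, 5.38 and 5.12 CPM in ERRg libraries. MMP17, which is anchored by a lipid, read 13.2, 16.4, 13.1 and 15.9 CPM in GFP and 3.70, 4.51, 6.94 and 6.59 CPM in ERRg libraries. Both were lower in every ERRg library (-1.31 and -1.43, adjusted p = 1.08e-08 and 8.23e-08), and neither passed with offsets (-0.08 and -0.11, adjusted p = 0.444 and 0.340). For MMP17 the ERRg pairs differed, with a log2 fold change of -1.85 from ERRg 1 and 2 and of -1.13 from ERRg 3 and 4.

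MMP16 and MMP24, both known from brain, turned with the fit. MMP16 read 57.2, 56.0, 61.1 and 72.7 CPM in GFP and 98.5, 98.0, 79.2 and 83.4 CPM in ERRg libraries. Its ERRg libraries were all above its GFP libraries (0.54, SE 0.10, adjusted p = 8.09e-05), and with offsets it was called lower (-0.33, adjusted p = 3.38e-05). MMP24 read 10.9, 12.4, 10.7 and 9.47 CPM in GFP and 6.71, 5.97, 9.77 and 7.40 CPM in ERRg libraries. ERRg library 3 overlapped the GFP range; the gene was called lower in the TMM fit (-0.54, SE 0.14, adjusted p = 0.00167) and higher with offsets (0.40, adjusted p = 0.00175).

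MMP24OS, on the other strand, shares 799 exon bases with MMP24, 18.1% of those of MMP24. It read 54.2, 71.9, 48.4 and 56.7 CPM in GFP and 14.5, 15.2, 23.7 and 19.7 CPM in ERRg libraries. No ERRg library came near the GFP range, and the gene fell in both fits (-1.66, SE 0.14, adjusted p = 1.78e-09; -2.18 with offsets). MMP25, at 4 to 17 reads a library, passed in neither fit (-0.54, adjusted p = 0.218; 0.74 with offsets, adjusted p = 0.0713), and it shares 35.2% of its exon bases with MMP25-AS1. Its ERRg pairs differed: it was called lower with ERRg 1 and 2 alone (-1.53, adjusted p = 0.0189) and stood at 0.027 (adjusted p = 0.961) with ERRg 3 and 4 alone.

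Of the 19 ADAMTS genes 14 could be tested. Of these 6 were higher and 8 lower (42.9% and 57.1%, against 28.96% and 50.6% of the tested protein-coding genes). The proteoglycanases, which cut versican, aggrecan and their relatives, split: ADAMTS5, ADAMTS9, ADAMTS15 and ADAMTS20 were higher, and ADAMTS1 and ADAMTS4 lower. ADAMTS1 read 166, 180, 179 and 163 CPM in GFP and 67.4, 71.1, 70.9 and 77.7 CPM in ERRg libraries. ADAMTS5, an aggrecanase that lies next to it on chromosome 21 on the same strand, read 92.8, 96.3, 108 and 106 CPM in GFP and 143, 145, 131 and 142 CPM in ERRg libraries. The neighbours moved apart, both without overlap, at -1.26 (SE 0.09, adjusted p = 1.54e-10) for ADAMTS1 and 0.48 (SE 0.09, adjusted p = 3.84e-05) for ADAMTS5. With offsets ADAMTS1 was lower (-0.75), and ADAMTS5 did not pass (0.09, adjusted p = 0.108).

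ADAMTS4, the other main aggrecanase, read 41.8, 49.0, 42.5 and 41.2 CPM in GFP and 12.7, 12.0, 18.3 and 16.1 CPM in ERRg libraries. It was 2.95-fold lower, with the groups well apart (-1.56, SE 0.12, adjusted p = 5.36e-10; -1.04 with offsets). ADAMTS9, a versican-cutting protease and the most abundant ADAMTS per length in ERRg libraries (25.9 CPM per kb), read 186, 185, 205 and 163 CPM in GFP and 266, 281, 267 and 292 CPM in ERRg libraries. All ERRg libraries were higher (0.58, SE 0.09, adjusted p = 5.88e-06; 0.68 with offsets). ADAMTS9-AS1, a noncoding gene on the opposite strand that shares 1.63% of the exon bases of ADAMTS9, was higher as well, at 6.30 ± 0.885 CPM in GFP and 24.4 ± 1.45 CPM in ERRg libraries (SD, n = 4; 1.95, SE 0.11).

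ADAMTS15, which also cuts versican, read 2.39, 3.0, 2.37 and 2.22 CPM in GFP and 3.17, 3.49, 5.75 and 4.43 CPM in ERRg libraries. The rise was 0.75 (SE 0.19, adjusted p = 0.00144; 1.68 with offsets). It differed between the ERRg pairs: 1.00 (adjusted p = 8.45e-05) with ERRg 3 and 4 alone, and 0.39 (adjusted p = 0.103) with ERRg 1 and 2 alone. ADAMTS20, at 11 to 22 reads a library, passed narrowly (0.68, adjusted p = 0.0442), and passed in none of the 8 fits that left out 1 library (adjusted p up to 0.150) and not with offsets.

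The procollagen N-proteinases trim the amino end of fibrillar procollagens before fibrils form. Here they split. ADAMTS3, which also processes a lymphatic growth factor and reelin, read 23.3, 22.4, 24.9 and 23.7 CPM in GFP and 62.7, 54.8, 47.2 and 50.7 CPM in ERRg libraries. It was 2.28-fold higher, with a wide gap between groups (1.19, SE 0.10, adjusted p = 1.28e-09; 0.83 with offsets). ADAMTS2, whose loss causes a skin fragility form of Ehlers-Danlos syndrome, was the member with the lowest TMM log2 fold change, from 2.0 ± 0.23 CPM in GFP to 0.351 ± 0.0200 CPM in ERRg libraries (SD, n = 4), on 42 to 64 and 8 to 9 reads. It was 5.70-fold lower (-2.50, SE 0.26, adjusted p = 2.29e-08; -1.90 with offsets). ADAMTS14 was lower in the TMM fit (-0.74, adjusted p = 0.00208), not with ERRg 3 and 4 alone (-0.51, adjusted p = 0.0539), and not with offsets (0.15, adjusted p = 0.418).

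ADAMTS7 and ADAMTS12, which cut cartilage oligomeric matrix protein, gave 13.2 to 25.4 CPM and 27.0 to 33.7 CPM over the 8 libraries. ADAMTS12 read 27.0, 27.0, 27.9 and 27.5 CPM in GFP and 33.7, 32.8, 28.7 and 32.3 CPM in ERRg libraries. Its rise was small (0.22, SE 0.09, adjusted p = 0.0320; 0.23 with offsets) and kept its call in 1 of the 8 fits that left out 1 library (adjusted p up to 0.273). It passed with ERRg 1 and 2 alone (0.26, adjusted p = 0.0199) and not with ERRg 3 and 4 alone (0.14, adjusted p = 0.238). ADAMTS7 was lower in the TMM fit (-0.67, adjusted p = 1.63e-05) and higher with offsets (0.44, adjusted p = 7.73e-06). ADAMTS6 and ADAMTS19 were lower in both fits (-0.36 and -0.45; -0.78 and -0.51 with offsets), but these calls depended on the scaling. With upper-quartile factors they stood at -0.055 and -0.15 (adjusted p = 0.658 and 0.354), and neither passed with library totals or with protein-coding genes alone. ADAMTS19 did not pass with ERRg 1 and 2 alone (-0.31, adjusted p = 0.0848). ADAMTS10, which binds fibrillin, was lower in the TMM fit (-1.15, adjusted p = 6.73e-06) but not with offsets (0.01, adjusted p = 0.968).

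The ADAMTS-like proteins have the matrix-binding repeats without a protease domain. ADAMTSL1 and ADAMTSL5 were lower in the TMM fit (-0.27 and -0.98, adjusted p = 0.0156 and 0.000333) and did not pass with offsets (0.10 and 0.28). ADAMTSL1 passed with ERRg 1 and 2 alone (-0.39, adjusted p = 0.00217) and not with ERRg 3 and 4 alone (-0.20, adjusted p = 0.102). ADAMTSL4, a fibrillin binder tied to the position of the eye lens, read 4.10 to 5.74 CPM in GFP and 4.40 to 5.91 CPM in ERRg libraries, which overlapped (0.01, adjusted p = 0.967), and was called higher with offsets (1.23, adjusted p = 7.58e-08).

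TIMP1, TIMP2 and TIMP3 fell and TIMP4 rose, and each of the 4 kept its call with offsets. TIMP1, a soluble inhibitor of most secreted MMPs (chrX:47582313-47586789), read 101, 134, 103 and 109 CPM in GFP and 27.2, 27.7, 42.5 and 35.8 CPM in ERRg libraries. It was 3.35-fold lower, and the 2 ERRg pairs differed in level while both stayed far below GFP (-1.74, SE 0.13, adjusted p = 3.47e-10; -0.55 with offsets). TIMP2, the partner of MMP14 in activating MMP2 (chr17:78852977-78925387), read 529, 555, 560 and 507 CPM in GFP and 253, 253, 297 and 286 CPM in ERRg libraries. It was lower in every ERRg library (-0.98, SE 0.09, adjusted p = 4.26e-09; -0.39 with offsets). TIMP3, which binds the matrix and also blocks ADAMTS aggrecanases (chr22:32801701-32863043), read 199, 210, 208 and 173 CPM in GFP and 60.2, 68.5, 76.6 and 71.6 CPM in ERRg libraries. Its groups were apart, at -1.51 (SE 0.10, adjusted p = 9.56e-11), and it moved little with offsets (-1.22).

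TIMP4, the TIMP with the narrowest tissue range, known from heart and brain (chr3:12153051-12159351), read 0.321, 0.138, 0.324 and 0.206 CPM in GFP and 1.52, 1.88, 1.81 and 1.95 CPM in ERRg libraries. This is 4 to 9 reads against 37 to 50 reads, with every ERRg library higher (2.83, SE 0.30, adjusted p = 3.41e-08; 3.77 with offsets). Per kb of exon it still gave 1.27% ± 0.140 (SD, n = 4) of the TIMP total in ERRg libraries, after 0.0720% ± 0.0282 in GFP. The share of TIMP1 was 32.2%, 37.6%, 31.5% and 35.6% in GFP libraries and 23.1%, 22.8%, 28.1% and 25.6% in ERRg libraries, without overlap. It went from 34.2% ± 2.88 to 24.9% ± 2.50 (SD, n = 4; exact two-sided permutation test, p = 0.0286, the smallest possible; 0.0429 adjusted over the 3 shares tested). TIMP2 took 45.4% ± 1.95 of the total in GFP and 56.3% ± 2.03 in ERRg libraries, and TIMP3 20.3% ± 1.198 and 17.5% ± 0.900. Without division by length the TIMP1 share differed by -4.38 points. These shares come from unadjusted reads; with offsets TIMP1 fell by 0.55, TIMP2 by 0.39 and TIMP3 by 1.22 on the log2 scale, so that TIMP1 and TIMP2 lay much closer together than in the TMM fit. The part of GC content in the TIMP1 share was not tested.

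TIMP1, TIMP3 and TIMP4 have a synapsin gene on the opposite strand, and each pair had the same direction in the TMM fit. TIMP1 and TIMP3 lie inside introns of SYN1 and SYN3 and share no exon base with them, while TIMP4 lies in SYN2 and shares 10.3% of its exon bases. SYN1 read 2.59 ± 0.505 CPM in GFP and 0.896 ± 0.268 CPM in ERRg libraries (SD, n = 4; -1.53, SE 0.24, adjusted p = 8.49e-06) and did not pass with offsets (-0.48, adjusted p = 0.0789). SYN3 read 2.49 ± 0.621 and 1.16 ± 0.190 CPM (-1.10, SE 0.22, adjusted p = 0.000172; -0.60 with offsets). SYN2 was higher, as TIMP4 was, from 8.15 ± 0.466 to 22.5 ± 2.17 CPM (1.47, SE 0.11, adjusted p = 2.65e-10; 1.76 with offsets). Whether reads of one gene of a pair were counted for the other was not tested.

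The 250 bases before the starts of TIMP3 and TIMP4 are shown because these inhibitors moved in opposite directions. They are from RefSeq on GRCh38.p14, printed 5′ to 3′ on the strand of the gene, with the GC box GGGCGG, searched on both strands, in capitals.
TIMP3, chr22:32801455-32801704, plus strand: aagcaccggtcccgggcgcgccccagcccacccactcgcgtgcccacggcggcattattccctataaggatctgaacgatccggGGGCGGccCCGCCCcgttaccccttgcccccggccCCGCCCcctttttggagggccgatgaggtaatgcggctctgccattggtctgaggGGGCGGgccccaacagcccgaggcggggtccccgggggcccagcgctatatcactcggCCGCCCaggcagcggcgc
TIMP4, chr3:12158913-12159162, minus strand: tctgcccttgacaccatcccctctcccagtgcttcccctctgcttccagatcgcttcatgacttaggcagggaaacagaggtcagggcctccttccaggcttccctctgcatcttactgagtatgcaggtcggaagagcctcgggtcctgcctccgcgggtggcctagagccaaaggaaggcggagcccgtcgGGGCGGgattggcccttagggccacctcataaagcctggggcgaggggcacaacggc
TIMP3 holds 5 such matches and TIMP4 holds 1, at 57 bases before the start. RefSeq promoters were found for 42 of the 64 members, and 30 of them have a GC box in the window of 300 bases around the start, as do 45.0% of all 35116 promoters. The half-site AAGGTCA, the core to which ERR receptors are known to bind, occurs on either strand in 1 of the 42, that of ADAMTSL5, and in 3.92% of all promoters. TATAAA occurs in 8 of the 42 and in 11.5% of all. A member counts if any of its listed promoters matches, while the percentages count single promoters, so these figures are not of the same kind. A match describes letters in this window, and no binding was measured.

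Of the 12 laminin chains 11 could be tested. LAMA2 alone was called higher in the TMM fit, 6 were lower and 4 did not pass. The shares were 9.09% higher and 54.5% lower, against 28.96% and 50.6% of the tested protein-coding genes. With offsets 4 were higher and 3 lower (36.4% and 27.3%, against 32.0% and 39.7% of the protein-coding genes). LAMC1 and LAMB1, the chains at the highest level per length, were among those that did not pass in the TMM fit. LAMC1, the gamma chain of most laminins, read 792, 812, 878 and 794 CPM in GFP and 699, 714, 711 and 758 CPM in ERRg libraries. LAMB1, the beta chain that goes with it, read 632, 670, 701 and 647 CPM in GFP and 584, 615, 592 and 621 CPM in ERRg libraries. The groups did not overlap for either gene. Neither passed in the TMM fit (-0.19 and -0.14, adjusted p = 0.0553 and 0.147). With offsets LAMC1 did not pass (-0.04) and LAMB1 was called higher (0.16, adjusted p = 0.00921). Their calls varied with the method. Both were called lower with the DESeq2 Wald test (adjusted p = 0.00277 and 0.0230), and in 4 and 2 of the 8 fits that left out 1 library. LAMC1 was also lower with limma-voom (adjusted p = 0.0259). With library totals both were called higher (0.22 and 0.27, adjusted p = 0.0258 and 0.00647). LAMB2, the beta chain of synaptic and kidney basement membranes, read 99.3, 108, 98.8 and 112 CPM in GFP and 64.6, 67.6, 83.8 and 83.6 CPM in ERRg libraries. It was called lower in the TMM fit with no overlap (-0.48, SE 0.10, adjusted p = 0.000190), and higher with offsets (0.61, adjusted p = 1.29e-08).

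The alpha chain sets which receptors a laminin binds, and the make-up of the alpha chains differed between groups. LAMA2, the alpha chain of muscle and Schwann cell basement membranes (chr6:128883141-129516569), read 6.89, 4.66, 5.22 and 7.82 CPM in GFP and 18.8, 19.6, 16.05 and 15.8 CPM in ERRg libraries. Each ERRg library was above each GFP library (1.52, SE 0.14, adjusted p = 7.16e-09; 1.36 with offsets), a 2.86-fold rise. LAMA5, the widespread alpha chain of mature basement membranes (chr20:62307955-62367312), read 108, 128, 108 and 126 CPM in GFP and 52.1, 61.1, 81.9 and 81.3 CPM in ERRg libraries. ERRg libraries 1 and 2 were lowest and none reached the GFP range (-0.76, SE 0.12, adjusted p = 1.14e-05), but the call turned with offsets (0.22, adjusted p = 0.00269).

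LAMA5 remained the main alpha chain in both groups, and its share of all alpha chain reads per kb fell. The share was 81.2%, 84.6%, 80.8% and 83.4% in GFP libraries and 57.7%, 59.5%, 70.5% and 69.8% in ERRg libraries. It thus went from 82.5% ± 1.80 to 64.4% ± 6.71 (SD, n = 4; exact two-sided permutation test, p = 0.0286, the smallest possible; 0.0429 adjusted over 3 shares), with both ERRg pairs below all GFP libraries. LAMA2 took 5.99% ± 1.42 of the alpha chains in GFP and 23.2% ± 5.11 in ERRg libraries. These shares come from unadjusted reads, and LAMA5 is GC-rich (66.4%) while LAMA2 is not (46.5%); the part of GC content in the share was not tested. The share of LAMB2 in the beta chains was 14.4% ± 1.05 in GFP and 12.2% ± 1.32 in ERRg libraries (SD, n = 4) and did not pass (exact permutation test, p = 0.0571). LAMB1 took 76.8% ± 1.11 of the beta chains in GFP and 83.0% ± 1.93 in ERRg libraries. LAMB3 took 8.47% ± 0.631 and 4.50% ± 0.655. For both chains the shares did not overlap between groups, and neither difference was tested.

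**Figure D5:**
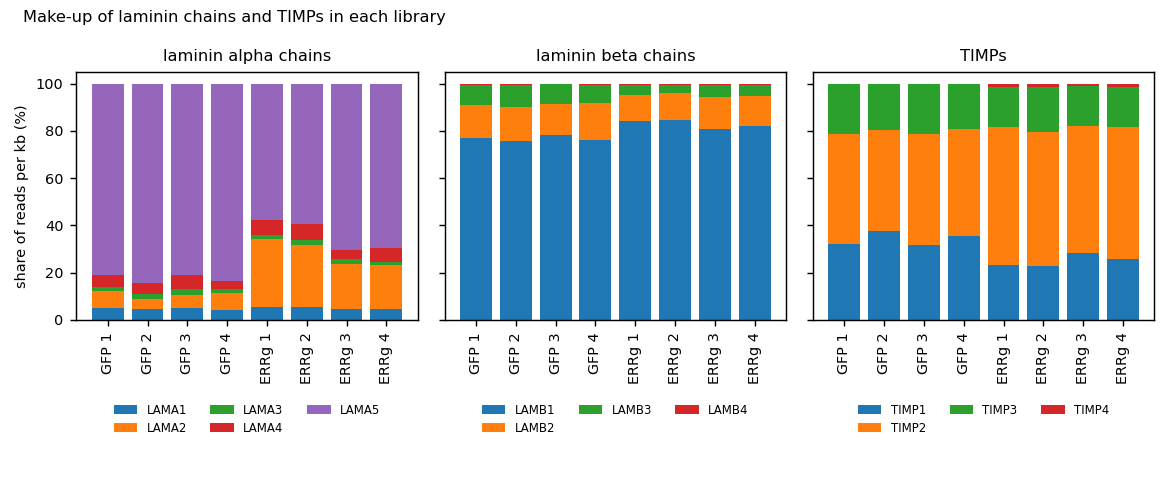
Stacked share of reads per kb of exon taken by each laminin alpha chain (left), each laminin beta chain (middle) and each TIMP (right) in each of the 8 libraries. LAMA2 takes 4.25% to 7.17% of the alpha chains in GFP and 18.7% to 28.8% in ERRg libraries.

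LAMA1, the alpha chain of the early embryo, read 7.14, 7.80, 7.41 and 6.75 CPM in GFP and 5.35, 6.12, 5.99 and 5.94 CPM in ERRg libraries. The groups did not overlap, but the fall was small (-0.31, SE 0.12, adjusted p = 0.0247) and did not pass with offsets (-0.15, adjusted p = 0.170). LAMA1 passed with ERRg 1 and 2 alone (-0.36, adjusted p = 0.0418) and not with ERRg 3 and 4 alone (-0.31, adjusted p = 0.0814). LAMA4, known from vessel walls, read 5.17, 5.49, 6.76 and 4.61 CPM in GFP and 4.81, 5.67, 3.73 and 5.57 CPM in ERRg libraries. LAMB4, a chain at low level here, read 2.57, 3.48, 1.73 and 2.80 CPM in GFP and 2.47, 2.07, 2.22 and 2.28 CPM in ERRg libraries. Both overlapped between groups and passed in neither fit (-0.16 and -0.23, adjusted p = 0.379 and 0.304). LAMC3, a gamma chain known from brain cortex, had 2 to 12 reads and was not tested.

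LAMA3 and LAMB3, chains of laminins in epithelial basement membranes, were both lower, and each kept its call with offsets. LAMB3 (chr1:209614870-209652466) read 40.3, 47.2, 43.1 and 37.8 CPM in GFP and 16.8, 15.8, 22.5 and 20.3 CPM in ERRg libraries. It had far more reads than LAMA3 and no overlap (-1.16, SE 0.11, adjusted p = 1.2e-08; -0.26 with offsets). LAMA3 (chr18:23689443-23956222) read 2.64, 3.10, 3.42 and 2.63 CPM in GFP and 1.56, 2.03, 2.22 and 1.22 CPM in ERRg libraries. ERRg library 4 was the lowest, and the groups were apart (-0.75, SE 0.20, adjusted p = 0.00230; -0.61 with offsets). LAMA3 did not pass with upper-quartile factors (-0.44, adjusted p = 0.0516), library totals (-0.34, adjusted p = 0.134) or protein-coding genes alone (-0.43, adjusted p = 0.0506). The unadjusted sum of the epithelial markers, given above, was lower in ERRg libraries too, while with offsets 3 of the 6 tested were higher and 2 lower. CDH1 and ESRP1 had no more than 10 reads in any library. The markers' part in this fall was not tested.

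The 250 bases before a start of LAMA3 and of LAMB3 are shown because these chains fell together; RefSeq lists 3 starts for LAMB3, and the one with a match is given. Capitals mark TGAGTCA, the core sequence that AP-1 factors are known to bind, on either strand.
LAMA3, chr18:23872770-23873019, plus strand: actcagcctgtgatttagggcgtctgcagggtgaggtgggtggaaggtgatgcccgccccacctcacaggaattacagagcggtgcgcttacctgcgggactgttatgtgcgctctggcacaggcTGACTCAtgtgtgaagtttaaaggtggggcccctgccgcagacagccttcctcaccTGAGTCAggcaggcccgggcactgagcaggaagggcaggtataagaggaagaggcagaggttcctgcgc
LAMB3, chr1:209651375-209651624, minus strand: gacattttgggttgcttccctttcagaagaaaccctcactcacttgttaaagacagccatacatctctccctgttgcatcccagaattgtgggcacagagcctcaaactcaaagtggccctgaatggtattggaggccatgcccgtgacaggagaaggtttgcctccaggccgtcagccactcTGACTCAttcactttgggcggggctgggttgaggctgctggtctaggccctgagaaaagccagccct
The matches begin 125 and 69 bases before the start in LAMA3 and 67 bases before it in LAMB3. Among the 42 members with a RefSeq promoter only LAMA3, LAMB3 and MMP7 have this sequence in the window of 300 bases, and 4.95% of all promoters do. The percentage again counts single promoters. Both starts lie inside the longer gene spans that GENCODE 29 gives, and the counts do not tell which start was used.

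Genes linked with the members were taken from 3 further lists. Of the tested protein-coding genes 28.96% were higher and 50.6% lower, and with offsets 32.0% and 39.7%. Of 40 basement membrane partners and laminin receptors 37 could be tested. Of these 6 were higher and 23 lower (16.2% and 62.2%, median log2 fold change -0.65). With offsets 8 were higher and 17 lower (21.6% and 45.9%, median -0.13). Among the genes with the smallest p in each direction were the collagen chain COL4A3 (1.64) and the receptor kinase MUSK (1.15), both higher. The laminin receptor chain ITGA3 (-1.65), FBLN2 (-2.37) and the integrin partner CD151 (-1.96) were among them too, all lower. All the genes named here kept their direction with offsets, at 1.79, 1.29, -0.66, -1.44 and -0.65. ITGA3, whose integrin binds laminins with the LAMA3 or LAMA5 chain, went from 1116 ± 98.3 to 355 ± 51.3 CPM (SD, n = 4).

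Of 33 activators, inhibitors and clearance factors of these proteases 31 could be tested, with 9 higher and 18 lower (median -0.50; with offsets 10 higher, 17 lower and median -0.19). ADAM9 (0.67), ADAM22 (0.61) and SPOCK3 (1.88) led those higher, and ADAM15 (-1.80), FURIN (-1.65) and CD63 (-1.41) those lower. With offsets ADAM22 did not pass (0.016, adjusted p = 0.780), ADAM9 stood at 0.18 and SPOCK3 at 1.20. FURIN, the convertase that cuts the pro-domain of membrane-bound MMPs and of many ADAMTS proteases, read 159 ± 9.52 CPM in GFP and 50.6 ± 10.1 CPM in ERRg libraries (SD, n = 4), and -0.53 with offsets. CD63, a cell surface partner of TIMP1, went from 724 ± 89.0 to 273 ± 30.1 CPM (-0.39 with offsets).

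Of 44 matrix substrates 30 could be tested, with 3 higher and 23 lower (10% and 76.7%, median -0.66). With offsets 6 were higher and 19 lower (20% and 63.3%, median -0.40). COL11A1 (0.59), TNR (1.38) and LUM (0.34) were higher, LUM not with offsets (0.05, adjusted p = 0.597). RELN (-2.05), ELN (-1.58) and COL5A1 (-1.61) led those lower. RELN, the secreted guidance protein that ADAMTS3 can cut, fell from 24.7 ± 2.56 to 5.96 ± 0.439 CPM (SD, n = 4; -2.23 with offsets), while ADAMTS3 rose as given above. The list shares 5 genes with the fibroblast markers.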

How the data were processed

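Raw counts for 8 libraries were deposited by the authors in 1 table, which also holds 5 summary lines that name no gene. These lines held 41.8% to 59.3% of the reads and were kept out of library sizes and tests. HTSeq 0.11.3, STAR 2.7.8a, Trim Galore 0.6.6, CASAVA, DESeq2 and the build GRCh38 are named in the submitters' processing notes, without roles; no source used here gives the annotation or whether counting used strand. Gene positions, exon lengths and GC content come from GENCODE 29, which held 58488 of the 67060 rows, and promoters from RefSeq.

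Counts were tested with edgeR 4.0.16 (quasi-likelihood test, TMM factors, its default low-count filter, group as the only term) over 21993 genes in R 4.3.3, and p-values were Benjamini-Hochberg adjusted; this is the adjusted p in all sentences that give no other test. A fit with GC, length and span offsets (natural splines of 5 degrees of freedom each, per library) covered 13426 protein-coding genes. Shares were computed from reads per kb of exon in each library and tested with exact permutation tests. Alternatives were DESeq2 1.42.0, limma-voom (limma 3.58.1), other scalings and filters, a replicate block, a covariate and left-out libraries. The TMM fit was checked on simulated counts in which few genes changed and no trend with GC content was built in. The fit with offsets was not checked in this way.

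The members and gene lists were chosen with earlier results of these data known. Every member may be named, and values of each library are given for called members with an average log2 CPM of at least 1 (at most the 14 with the smallest p in each direction), for all tested TIMPs and laminin chains, and for MMP2 and the main membrane-bound MMPs. In each further list, the 3 genes with the smallest p in each direction are named. The values of 2 genes that these rules take in are not reported here.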

Additional observations from a re-analysis of the deposited data

Results flagged for a closer look

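In 3 of 100 groups of 4 libraries examined (47 members and 3 shares in GFP and in ERRg), 1 library stood apart from the other 3 by Dixon's criterion; chance alone flags about 1 in 20 groups. MMP13 was highest in GFP library 4, at 0.370 CPM, while the other GFP libraries read 0.0690 to 0.108 CPM. Without that library its log2 fold change was 2.66 (edgeR adjusted p = 9.02e-05). MMP21 was highest in ERRg library 4, at 4.19 CPM, against 3.83 to 3.87 CPM in the other ERRg libraries. ADAMTS4 was highest in GFP library 2, at 49.0 CPM, against 41.2 to 42.5 CPM in the other GFP libraries. No cause was tested.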

How the results depend on the processing

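The 11 members called higher and 29 called lower became 9 to 10 higher and 28 to 32 lower when each library was left out in turn. Of all genes tested in these fits, 34.0% to 37.2% were higher and 33.8% to 36.8% lower. Of the 40 called members 36 kept the call in all 8 of these fits. ADAMTS20 lost it in all 8 (adjusted p up to 0.150), ADAMTS12 in all but the fit without ERRg library 3 (up to 0.273), ADAMTSL1 without ERRg library 2 (0.0550) and LAMA1 without ERRg library 1 (0.0630). ADAMTSL4, close to 0 throughout, ranged from -0.17 to 0.055. Against a log2 fold change of 1, 5 members were higher and 12 lower, as were 7.69% and 10.5% of all genes tested. Adding the share of reads outside exons as a covariate left 0 called higher and 0 lower in edgeR (6 and 2 of all 21993 genes); that share separates the groups, so the covariate and the group cannot be told apart. With GC, length and span offsets 14 were higher and 19 lower (32.0% and 39.7% of all genes in that fit), and the cause was not tested. Chosen after seeing the data, fits without ERRg libraries 1 and 2 gave 9 and 26, and fits without ERRg libraries 3 and 4 gave 9 and 29. Of all genes tested, 30.7% were higher and 31.6% lower without ERRg 1 and 2, and 34.5% and 33.5% without ERRg 3 and 4.

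The scaling moved the median of all genes from 0.09 to 0.40 with upper-quartile factors (12 members higher, 22 lower) and to 0.50 with library totals (14 and 20). Of all genes tested, 50.2% were higher and 27.5% lower with upper-quartile factors, and 53.6% and 24.5% with library totals. With protein-coding genes alone 13 members were higher and 22 lower, against 40.8% and 39.6% of the genes in that fit. Its median was 0.018, after -0.30 for the protein-coding genes in the TMM fit. MMP24, ADAMTS6, ADAMTS19, ADAMTSL1, LAMA1, LAMA3 and LAMB2 lost their call under each of these 3 scalings, and MMP19 and ADAMTS14 with library totals. ADAMTS6 also lost it with an average CPM of at least 1 (adjusted p = 0.0559). Some members gained a call. LAMB1 was called higher with upper-quartile factors, library totals and protein-coding genes alone (adjusted p = 0.0487, 0.00647 and 0.0334). LAMC1 was called higher with library totals (adjusted p = 0.0258). ADAMTSL4 was called higher with library totals and with protein-coding genes alone (0.41 and 0.32, adjusted p = 0.0186 and 0.0474). Under these 3 scalings the following log2 fold changes turned sign. With upper-quartile factors they were ADAMTSL1 0.025, LAMA4 0.15, LAMB1 0.17, LAMB4 0.074 and LAMC1 0.12. With library totals they were MMP12 0.086, ADAMTS6 0.045, ADAMTSL1 0.12, LAMA1 0.091, LAMA4 0.25, LAMB1 0.27, LAMB4 0.18 and LAMC1 0.22. With protein-coding genes alone they were ADAMTSL1 0.036, LAMA4 0.16, LAMB1 0.18, LAMB4 0.085 and LAMC1 0.13.

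With offsets the signs turned for MMP16 -0.33, MMP24 0.40, MMP25 0.74, ADAMTS14 0.15, ADAMTS7 0.44, ADAMTS10 0.0090, ADAMTSL1 0.10, ADAMTSL5 0.28, LAMA5 0.22, LAMB1 0.16 and LAMB2 0.61. With the covariate they turned for MMP13 -1.46, MMP16 -0.37, MMP24 0.69, MMP25 1.56, ADAMTS14 0.47, ADAMTSL4 -0.12, LAMA1 0.29, LAMA2 -0.83, LAMA3 0.17, LAMA4 0.29, LAMA5 0.31, LAMB1 0.16, LAMB2 0.050, LAMB3 0.086, LAMB4 0.67 and LAMC1 0.055. ADAMTSL4 was -0.027 with the DESeq2 Wald test and with DESeq2 size factors, -0.046 with no low-count filter and -0.15 without ERRg libraries 3 and 4. MMP25 was 0.027 without ERRg libraries 1 and 2.

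Same-numbered libraries of the 2 groups did not deviate together (r from -0.158 to 0.0878), and not every library correlated best with its own number, so the numbers were not taken as pairs. The replicate block gave 9 members higher and 28 lower, against 37.2% and 34.8% of all genes tested. The replicate block with offsets gave 14 and 19, against 31.0% and 38.4% of the genes in that fit. Signs turned there for MMP16 -0.32, MMP24 0.40, MMP25 0.68, ADAMTS14 0.16, ADAMTS7 0.44, ADAMTS10 0.0085, ADAMTSL1 0.10, ADAMTSL5 0.28, LAMA5 0.21, LAMB1 0.16 and LAMB2 0.61. Under the block a sign-flip test of the shares cannot go below 0.125, the p it gave for the LAMA5 share (-18.2 points) and the TIMP1 share (-9.34 points).

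Leaving out each library in turn, the difference in share ranged from -20.2 to -15.9 points for LAMA5, from -2.66 to -1.78 points for LAMB2 and from -10.4 to -8.20 points for TIMP1. Without division by length the TIMP1 difference was -4.38 points. Depth limits the 17 untested members and those with few reads, MMP13, MMP25, ADAMTS2, ADAMTS20 and TIMP4.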
